A study of Mus musculus with 4 samples.

Results

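The cells described here are those of bone tissue that carry transcripts of basophils and of the mast cell lineage. A barcode was taken as a member when it held at least 5 UMIs (unique molecular identifiers, each standing for 1 captured transcript molecule) of Mcpt8, Prss34, Cpa3 and Ms4a2 together. It also had to hold fewer than 2 UMIs of the B and T cell genes Cd79a and Cd3e and fewer than 10 UMIs of the skeletal genes Col1a1, Col1a2 and Acan. Members were drawn from barcodes with 1000 to 40000 UMIs, at least 200 genes, at most 10% mitochondrial and at most 0.2% haemoglobin UMIs. They numbered 138 of 31279 such barcodes, or 0.441%. Members were thus chosen by the measured UMIs of the 4 marker genes, whose levels are given below as a description and not as a finding.

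The study asked how unloading of the hind limbs changes the cells of bone. It compared 2 untreated wild-type mice (Ctrl) with 2 wild-type mice after hindlimb unloading (HLU), in which the tail is suspended for 28 days so that the hind limbs bear no weight. The study's methods name C57BL/6J for its unloading model, the sex of the mice sequenced is not given in the sources used here, which differ on their age, and no transgene or drug is named for either group. After the marrow had been flushed out, enzymes freed the cells of tibiae and femurs, and the cells of each mouse made 1 library with a droplet kit that captures the 3′ ends of transcripts. Each library held 10000 or 10003 barcodes, with 57925383 and 61296053 UMIs in Ctrl replicates 1 and 2 and 47819046 and 99849070 UMIs in HLU replicates 1 and 2. No members shared a barcode between libraries (0 of 138), whereas 23 to 36 barcodes were shared per pair of libraries among all those deposited.

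The groups stood apart before any basophil gene was considered. Barcodes with 10 or more UMIs of Col1a1, Col1a2 and Acan made up 24.1% and 20.9% of the Ctrl libraries but 0.423% and 0.865% of the HLU libraries. Barcodes that met a rule for neutrophils (10 or more UMIs of 8 neutrophil genes such as Ngp, Ltf and Camp, and fewer than 2 UMIs of the 4 marker genes together) accounted for 34.3% and 47.7% of the Ctrl libraries and for 78.2% and 68.3% of the HLU libraries. HLU replicate 2 also had more UMIs per neutrophil, with a median of 7237 against 3846, 3729 and 3819 in the other libraries in the order above. Among members the median was 7522, 6625, 8259 and 6637.5 UMIs, with HLU replicate 1 the highest.

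Basophils are rare granulocytes that mature in the marrow from progenitors shared with mast cells. They display the high-affinity receptor for immunoglobulin E (IgE), and when antigen links this receptor they release histamine, proteases and the cytokine IL-4. In mice, mature basophils store the proteases Mcpt8 and Prss34, whereas mature mast cells of connective tissue store tryptases and chymases such as Tpsb2, Cma1 and Mcpt4 and keep the receptor Kit on their surface. Cpa3, a carboxypeptidase of the granule, and Ms4a2, the beta chain of the IgE receptor, belong to both lineages, and GATA2 is a transcription factor that both need.

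Because the members were found by genes of this lineage, the 250 bases before the start of 5 of those genes are shown. The sequences are from RefSeq (GRCm38.p6, the assembly also called mm10), 5′ to 3′ on the strand of the gene. Capitals mark each match, on either strand, to a hexamer that contains the core recognised by GATA factors, namely AGATAA and its variant AGATAG, or TGATAA and its variant TGATAG.
Mcpt8: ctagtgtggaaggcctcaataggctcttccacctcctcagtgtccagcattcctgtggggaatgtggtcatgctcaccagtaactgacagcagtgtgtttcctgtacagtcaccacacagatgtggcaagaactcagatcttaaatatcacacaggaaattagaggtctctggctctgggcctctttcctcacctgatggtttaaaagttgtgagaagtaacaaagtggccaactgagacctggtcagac
Prss34: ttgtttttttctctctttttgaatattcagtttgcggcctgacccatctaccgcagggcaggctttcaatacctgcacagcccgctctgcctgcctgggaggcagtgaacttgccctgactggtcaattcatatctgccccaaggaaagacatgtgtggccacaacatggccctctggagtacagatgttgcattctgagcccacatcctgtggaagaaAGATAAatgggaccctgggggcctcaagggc
Cpa3: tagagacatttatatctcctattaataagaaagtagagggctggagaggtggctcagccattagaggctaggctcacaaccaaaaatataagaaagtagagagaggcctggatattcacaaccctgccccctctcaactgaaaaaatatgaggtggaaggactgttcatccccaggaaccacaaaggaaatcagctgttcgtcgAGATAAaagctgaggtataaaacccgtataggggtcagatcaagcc
Ms4a2: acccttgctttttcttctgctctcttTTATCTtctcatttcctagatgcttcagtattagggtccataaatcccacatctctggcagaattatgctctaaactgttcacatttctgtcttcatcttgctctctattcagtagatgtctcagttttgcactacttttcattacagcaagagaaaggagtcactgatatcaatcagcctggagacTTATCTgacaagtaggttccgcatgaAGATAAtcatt
Cd200r3: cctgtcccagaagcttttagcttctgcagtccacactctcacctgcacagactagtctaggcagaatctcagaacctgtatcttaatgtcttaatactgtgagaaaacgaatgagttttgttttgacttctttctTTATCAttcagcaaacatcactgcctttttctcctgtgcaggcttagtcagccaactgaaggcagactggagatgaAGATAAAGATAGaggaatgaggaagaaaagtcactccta

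The windows lie at chr14:56085198-56085447 (minus strand) for Mcpt8, chr17:25298144-25298393 (plus strand) for Prss34, chr3:20242182-20242431 (minus strand) for Cpa3, chr19:11623720-11623969 (minus strand) for Ms4a2 and chr16:44943428-44943677 (plus strand) for Cd200r3, an activating receptor of basophils. Ms4a2 and Cd200r3 each held 3 hexamers, a number reached by 1.35% of the 32851 windows of this length in the RefSeq table. Prss34 and Cpa3 each held 1, as 26.5% of windows did at least, and Mcpt8 held 0. In Prss34 and Cpa3 the match began 31 and 46 bases before the start, and in Cd200r3 the last pair of matches adjoin without overlap. Of 12 genes looked up, 11 had an entry, and 7 of the 11 held a hexamer. Such matches describe letters in these windows and are not evidence of binding.

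The members bore basophil markers that the rule had not used. Gata2 was detected in 125 of the 138 members, Cyp11a1, a steroid-synthesis enzyme found in basophils and mast cells, in 115, and the surface receptor Cd200r3 in 105. Barcodes of the neutrophil rule served as the background for RNA free in the droplets. They had been chosen to hold fewer than 2 marker UMIs, and there the same genes were detected in 0.12% to 0.62%, 0.04% to 0.15% and 0.17% to 0.33% of barcodes per library. Fcer1a, the alpha chain that binds IgE, was detected in 56 members and in 0% to 0.05% of neutrophils. Hdc, which makes histamine, was found in 129 members but also in 62.2% to 67.0% of neutrophils, and so did not set the members apart by detection.

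Mature mast cell transcripts were at or near 0. Tpsab1, Cma1, Mcpt4, Mcpt1, Mcpt2, Mcpt9, Mrgprb1, Mrgprb2 and Mrgprx2, 9 of the 15 genes of the mast cell list, had 0 UMIs in all 138 members. The tryptase gene Tpsb2 was found in 2 members. The list summed to 184, 127, 308 and 213 CPM in the 4 libraries (CPM, UMIs of a gene per 1000000 UMIs of the members of that library), and the gene of the list with most UMIs in members was Kit (136), the stem cell factor receptor, which progenitors also express. Basophil markers were thus frequent over the members as a whole, though not in each of the sets described below, and the defining transcripts of mature mast cells were at or near 0. The cells are called members below.

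The marker genes themselves varied widely among members. The 4 markers together gave between 5 and 1582 UMIs per member, with a median of 31. At the edge of the rule, 9 members held exactly 5 marker UMIs and 26 held 5 to 9, while 9 barcodes just outside it held 4 and 19 held 3. Mcpt8 was detected in 112 members, Prss34 in 98, Cpa3 in 98 and Ms4a2 in 99, and all 4 were found together in 56.

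Summed over the members of a library, Prss34 gave 8573 and 4080 CPM in Ctrl replicates 1 and 2 and 4716 and 9004 in HLU replicates 1 and 2. Mcpt8 gave 2087, 857, 1096 and 6583 CPM in the same order. For both proteases the groups overlapped. In Ctrl replicate 1 a single member held 70.6% of all Prss34 UMIs. Cpa3 gave 573, 558, 844 and 1423 CPM, and Ms4a2 gave 266, 328, 451 and 865. Both HLU libraries lay above both Ctrl libraries for these 2 genes, which the rule used, and no test is given.

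Members were more frequent in both HLU libraries than in either Ctrl library. They made up 0.150% of the passing barcodes of Ctrl replicate 1 (11 of 7311, 95% exact interval 0.0751% to 0.269%) and 0.254% of Ctrl replicate 2 (19 of 7495, 0.153% to 0.396%). In HLU replicate 1 they made up 0.581% (44 of 7571, 0.423% to 0.779%) and in HLU replicate 2 0.719% (64 of 8902, 0.554% to 0.917%). These intervals cover counting error only, and the HLU intervals lay above the Ctrl intervals. Averaged by group, the share was 0.202% ± 0.0729 for Ctrl and 0.650% ± 0.0974 for HLU (SD, n = 2 libraries each), a ratio of 3.22. The difference of 0.448 percentage points was larger than the spread between replicates. The exact permutation p was 0.333 (two-sided), and a design of 2 against 2 cannot give a smaller one.

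Since skeletal barcodes were scarce in the HLU libraries, the denominator mattered to the size. With skeletal barcodes left out, the shares were 0.198%, 0.320%, 0.584% and 0.725%, a ratio of 2.52. Per 1000 barcodes of the neutrophil rule, there were 4.38, 5.31, 7.43 and 10.5 members, a ratio of 1.85. Both HLU libraries stayed above both Ctrl libraries under each denominator, and a larger number of basophils cannot be told apart from a smaller number of other cells.

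**Figure D1:**
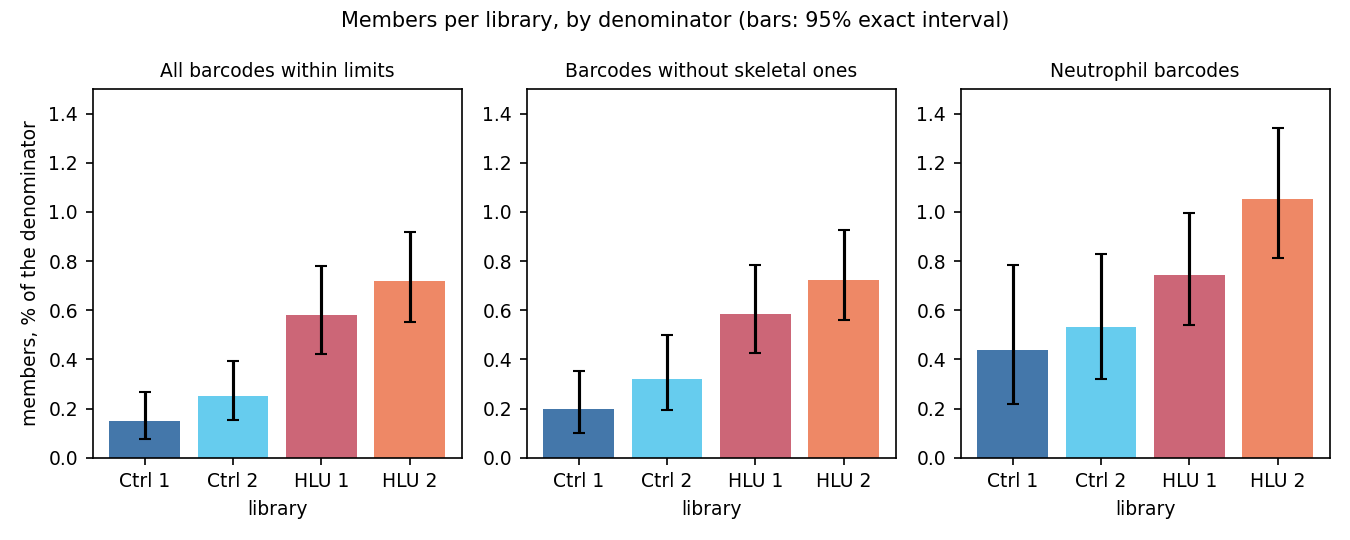
Members as a percentage of all passing barcodes, of passing barcodes without the skeletal ones, and of barcodes of the neutrophil rule (y axis, %) in each of the 4 libraries (x axis), with bars for the value and lines for the 95% exact binomial interval. The HLU bars stand above the Ctrl bars in all 3 panels. The ratio of the group means falls from 3.22 to 2.52 and 1.85. The intervals of the groups overlap in the panels without skeletal barcodes and of the neutrophil rule.

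The members were not uniform, and 4 sets were told apart after their values had been seen, so their differences are a description. The first set (83 members) held at least 5 UMIs of Mcpt8 and Prss34 together and, like the second, leaves out the cells of the last 2 sets. In it, Cd200r3 and Gata2 were each detected in 98.8% of cells, Fcer1a in 55.4% and the progenitor receptor Kit in 8.43%. Besides the rule genes its leading genes included Sytl3, Aqp9, Gzmc, Cyp4f18, Il18rap and Il6, among them a cytotoxic granule protease gene (Gzmc), a subunit of the IL-18 receptor (Il18rap) and an inflammatory cytokine (Il6).

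The second set (30 members) held fewer than 5 Mcpt8 and Prss34 UMIs and so needed UMIs of Cpa3 or Ms4a2 to meet the rule. Kit was detected in 63.3% of these cells, the stem cell antigen Cd34 in 53.3% and Cd200r3 in 15 of the 30. Sox4 and Myb, transcription factors of immature blood cells, were each detected in 66.7%. The leading genes included Myct1, Mef2c, Hes1, Meis1, Ctla2a, Sox4 and Kit, of which Meis1 and Mef2c encode transcription factors of stem and progenitor cells. Elane, the neutrophil elastase gene of granulocyte progenitors, was among them too, with 252 of its UMIs in 11 of these cells (ratio to the other members 7.19), and 7 of the 30 cells held 20 or more UMIs of the primary granule genes Elane, Mpo and Prtn3 together, against 2 of the 83 cells of the first set. Elane was also detected in 12.3% to 19.2% of neutrophils per library. Tpsb2 was absent from the set (0 cells). Taken by a split that uses only the rule genes, 29 members held fewer than 2 UMIs of Mcpt8 and Prss34, and Kit was found in 22 of them against 16 of the other 109.

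The third set (15 members) held at least 10 UMIs of Prg2, the gene of eosinophil major basic protein. These cells carried 18 to 2314 Prg2 UMIs, with a median of 545, and 11516 of the 11517 Prg2 UMIs of all members. Prg3, its close relative, was detected in all 15 of them, and Epx, the eosinophil peroxidase gene, in 11, whereas both were at 0 in the other members. Cpa3 was detected in 14 of the 15 and Kit in 66.7%, while Il5ra, the IL-5 receptor chain of eosinophils, was seen in 2 of them. Over all members the eosinophil genes Siglecf and Ccr3 gave 14 and 5 UMIs. Of these cells, 7 held 5 or more Mcpt8 and Prss34 UMIs and 5 held none. Scrublet, which scores barcodes that may hold 2 cells, marked 6 of the 15, against 5 of the 83 cells of the first set, and the part of doublets in these mixed transcripts was not tested.

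The fourth set (10 members) drew at least 5% of its UMIs from S100a8 and S100a9, the subunits of calprotectin, which neutrophils make in quantity. Mcpt8 was detected in 9 of the 10 and Cd200r3 in 6. All 10 came from HLU libraries, 3 from replicate 1 and 7 from replicate 2, and 3 were marked as possible doublets. The first set counted 9, 12, 21 and 41 members in the 4 libraries, the second 2, 6, 13 and 9, and the Prg2 set 0, 1, 7 and 7. With 11 members in all, Ctrl replicate 1 gives little depth to detect such cells.

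**Figure D2:**
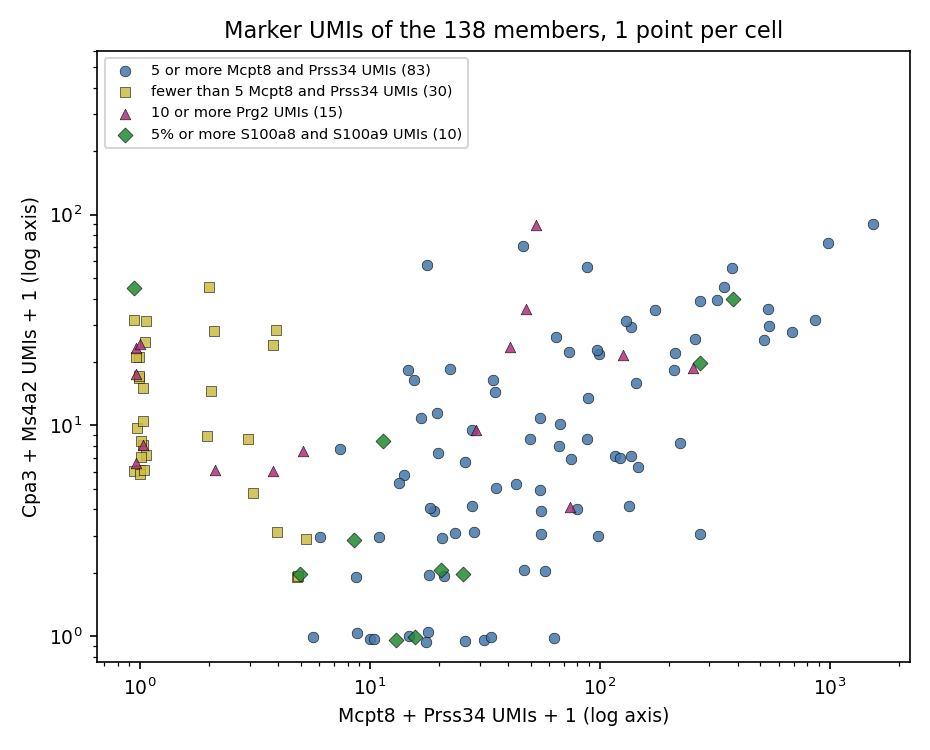
Marker UMIs of the 138 members, 1 point per cell, with Mcpt8 and Prss34 UMIs plus 1 on the x axis and Cpa3 and Ms4a2 UMIs plus 1 on the y axis (both log axes, points moved slightly at random). Colours and shapes give the 4 sets of 83, 30, 15 and 10 cells, and the second set forms the column at the left, with few or no Mcpt8 and Prss34 UMIs.

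**Figure D3:**
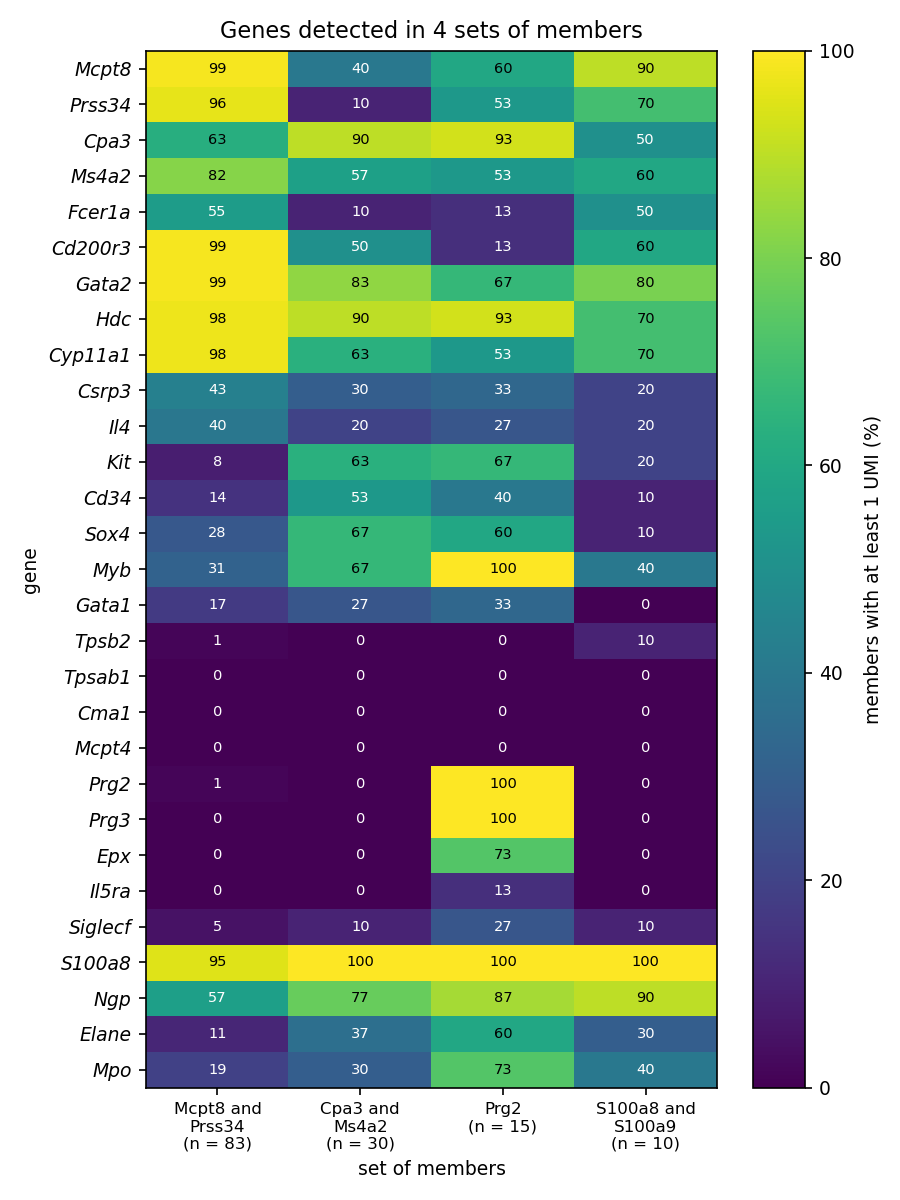
Percentage of cells with at least 1 UMI of each gene (rows) in the 4 sets of members (columns, with the number of cells), printed in each field and shown by colour. Cd200r3 fills the first column (98.8%) and Kit is frequent in the middle columns (63.3% and 66.7%), Prg3 and Epx are above 0 in the third alone, and the mast cell genes Tpsab1, Cma1 and Mcpt4 are at 0 in all 4.

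The share of members with fewer than 2 Mcpt8 and Prss34 UMIs was 18.2% and 21.1% for the Ctrl libraries and 31.8% and 14.1% for the HLU libraries. The HLU values lay above and below both Ctrl values, and no test is given, since these are genes of the rule.

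Within the IgE receptor, the signalling gamma chain Fcer1g, which other myeloid cells share, gave 1606 and 1617 CPM in Ctrl and 1856 and 2392 in HLU. Fcer1a, which binds IgE, gave 266 and 17.3 CPM in Ctrl and 163 and 353 in HLU, so that the groups overlapped and Ctrl replicate 2 stood lowest. The adaptor gene Lat2 was detected in 112 members and in 1.63% to 4.90% of neutrophils, and Lat, another adaptor of the receptor, in 47 members and in under 1% of neutrophils (0.38% to 0.90%). Over the 18 tested genes of IgE receptor signalling, 9 were positive and 9 negative in log2 fold change (HLU against Ctrl), with a median of 0.00 after rounding, and 0 passed an adjusted p of 0.05 (edgeR's quasi-likelihood test on UMIs summed per library), where 0.292% of all tested genes passed.

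Granule genes beyond the rule were led by Srgn, whose proteoglycan core holds proteases and histamine in the granule. It was found in all 138 members, at 4010, 2780, 2952 and 2873 CPM. Gzmb, a granzyme of cytotoxic granules, gave 460 and 305 CPM in Ctrl and 222 and 72.0 in HLU, from 28 members. Its 2 HLU values lay below the Ctrl values, and in Ctrl replicate 2 a single cell gave 50 of the 53 UMIs (log2 fold change -1.48, SE 0.55, adjusted p = 0.685). Of the 15 granule genes tested, 10 were positive and 5 negative (median 0.27), and 0 were called.

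For mediators, Hdc gave 1350 and 662 CPM in Ctrl and 675 and 854 in HLU. Slc18a2, the transporter that loads histamine into granules, was detected in 94 members against 0.20% to 1.04% of neutrophils, at 143, 288, 433 and 214 CPM. Alox5, the first enzyme of leukotriene synthesis, gave 102 and 69.1 in Ctrl and 178 and 340 in HLU, so that both HLU libraries were higher (log2 fold change 1.52, SE 0.48), but the adjusted p of 0.543 did not pass. Ltc4s, which makes leukotriene C4, was seen in 3 members. None of the 7 mediator genes tested was called (0 genes, 4 positive and 3 negative, median 0.10).

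Of the type 2 cytokine genes Il4, Il5, Il9 and Il13, Il4 alone was detected. Il4 gave 76 UMIs in 45 members, 40 of which also held Mcpt8, and was detected in 0% to 0.03% of neutrophils. It was found in 4 of 11 and 9 of 19 Ctrl members and in 23 of 44 and 9 of 64 HLU members. As a level this came to 51.1 and 115 CPM in Ctrl and 107 and 16.2 in HLU, and the groups overlapped. Il13, Il5, Il9, Il3 and Csf2 were at 0 in all members, which at 138 cells limits detection and does not show absence. Tnfsf11, the gene of the osteoclast factor RANKL, was found in 1 member.

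Other secreted factors were detected as well. Hgf, the hepatocyte growth factor gene, was detected in 100 members against 1.51% to 2.45% of neutrophils, at 123, 167, 171 and 427 CPM. Csf1, the gene of the growth factor that macrophages and osteoclast precursors need, was detected in 80 members against 4.48% to 7.87% of neutrophils. It gave 71.6 and 97.8 CPM in Ctrl and 201 and 268 in HLU, with no overlap of the groups. The log2 fold change was 1.33 (SE 0.41) and edgeR's adjusted p was 0.543, so that Csf1 was not called in the members alone with all libraries in the fit. With a library left out the change ran from 1.16 to 1.54. Of the 8 cytokine genes tested, 5 were positive and 3 negative (median 0.44), and 0 were called. The chemokine genes Ccl3, Ccl9 and Ccl4 were found in 109, 108 and 80 members, against 49.0% to 65.1%, 8.56% to 17.8% and 16.1% to 27.0% of neutrophils. Of the 7 chemokine genes tested, 3 were positive and 4 negative (median -0.28), with 0 called.

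Among receptors, the shared beta chains Csf2rb and Csf2rb2, through which IL-3 signals, were detected in 123 and 104 members, against 17.7% to 76.1% and 3.54% to 14.8% of neutrophils. Csf2rb gave 358 and 248 CPM in Ctrl and 660 and 623 in HLU (log2 fold change 0.98, adjusted p = 0.705). Il3ra, the chain that binds IL-3, gave 92.1, 46.0, 58.6 and 142, and its groups overlapped. Il1rl1, the gene of the IL-33 receptor ST2, gave 30.7 and 51.8 in Ctrl and 73.9 and 95.5 in HLU. Il18r1, an IL-18 receptor chain, went the other way, with 102 and 80.6 in Ctrl and 30.6 and 43.2 in HLU (log2 fold change -1.37, SE 0.47, adjusted p = 0.639). The 16 cytokine receptor genes tested were split evenly, with 8 positive and 8 negative (median -0.05), and 0 were called.

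Receptors and integrins of migration had 12 positive and 1 negative value among 13 tested genes, with a median of 0.56. Itgam and Itgb2, the chains of the integrin Mac-1, had the largest changes of those with both HLU libraries above Ctrl. Itgam gave 20.5 and 34.5 CPM in Ctrl and 96.9 and 202 in HLU (log2 fold change 2.25, adjusted p = 0.330). Itgb2 gave 40.9 and 63.3 in Ctrl and 133 and 236 in HLU (log2 fold change 1.66, adjusted p = 0.501). Neutrophils express both, in 68.9% to 92.2% and 61.6% to 90.4% of barcodes, and 0 genes of the list were called. The inhibitory and paired receptors had 7 positive and 5 negative values (median 0.14), with 0 called.

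Transcription factors were even, with 11 positive and 12 negative values among 23 tested genes (median -0.02). Gata2 gave 716 and 927 CPM in Ctrl and 854 and 935 in HLU, a log2 fold change of 0.01 (SE 0.38). Stat5a, through which IL-3 and thymic stromal lymphopoietin act on basophils, gave 164 and 121 in Ctrl and 38.2 and 23.4 in HLU. Both HLU libraries were lower (log2 fold change -2.30, SE 0.48), and edgeR's adjusted p of 0.156 did not pass. With a library left out the change of Stat5a ran from -2.69 to -1.88. With all libraries in the fit, 2 alternative settings called the gene. Its neighbour gene Stat5b gave 92.1 and 97.8 in Ctrl and 73.9 and 57.6 in HLU. Of the 13 basophil identity genes that the rule had not used, 11 were positive and 2 negative, with a median of 0.48, and 0 were called.

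Across all genes, edgeR called 12 of the 4103 tested between HLU and Ctrl members, or 0.292%, at the adjusted threshold of 0.05. Of these, 3 rose in HLU (0.0731%) and 9 fell (0.219%), while the unadjusted p lay under 0.05 for 282 genes (6.87%). With DESeq2 the calls numbered 20, of which 9 were higher and 11 lower. The median log2 fold change over all tested genes was 0.02. The sums behind the test held 97753 and 173764 UMIs in Ctrl and 392304 and 555179 in HLU, so that the Ctrl side rests on 30 cells. With a library left out, its group shows no spread between mice, so the counts of such fits are a description. The calls numbered 0 without Ctrl replicate 1, 3 without Ctrl replicate 2, 428 without HLU replicate 1 and 46 without HLU replicate 2.

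The 3 genes that rose were neutrophil genes. S100a9 gave 573 and 1209 CPM in Ctrl and 7504 and 15566 in HLU (log2 fold change 3.58, SE 0.55, adjusted p = 0.0272). S100a8 gave 389 and 967 in Ctrl and 5412 and 13192 in HLU (log2 fold change 3.66, SE 0.60, adjusted p = 0.0389). Ngp, a protein of neutrophil secondary granules, gave 123 and 161 in Ctrl and 948 and 1547 in HLU (log2 fold change 3.01, SE 0.45, adjusted p = 0.0250). Both HLU libraries were above both Ctrl libraries for each of these genes.

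The S100a8 and S100a9 values rested on few cells. The 10 members of the fourth set held 86.0% of the S100a8 and S100a9 UMIs of all members (18489 of 21505). Per member, the median share of the 2 genes in the UMIs was 0.0855% and 0.176% in Ctrl and 0.195% and 0.145% in HLU. Ngp was detected more widely, in 92 members (66.7%). For Ngp, the log2 fold change went to -0.093 with 11 members per library and to -0.26 among members with at least 5 Mcpt8 and Prss34 UMIs outside the last 2 sets. Without the 10 cells the log2 fold change of S100a9 was 0.86 and 0 genes were called higher, and without the putative doublets 0 were called higher as well. The 10 cells were chosen by their share of S100a8 and S100a9, so that the lower S100a9 value describes that choice and is not a test. The neutrophil list as a whole had 16 positive values among 17 tested genes, with a median of 2.65 and 3 calls. It summed to 3938 and 5341 CPM in Ctrl and 18447 and 41354 in HLU, against 225547 to 273638 in the neutrophils of the same libraries. All 20 genes of the list were detected in members, with S100a9 giving most UMIs (11852) and the surface marker Ly6g fewest (5). Whether these UMIs came from the members, from cells caught together with them or from free RNA was not tested.

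The 9 genes that fell belong to cartilage, joint and bone matrix or to stromal cells, and 5 of them (Dcn, Prg4, 1500015O10Rik, Clu and Sparc) are on the list of skeletal transcripts. Dcn, the gene of the matrix proteoglycan decorin, gave 48 and 101 UMIs in Ctrl members and 0 in HLU members. It was detected in all 30 Ctrl members and in none of the 108 HLU members, which puts it at least 173-fold lower, with 3 counts over the HLU group as the floor (edgeR's adjusted p = 0.000924). Prg4, the lubricin gene of joint surfaces, was at least 97.7-fold lower, 1500015O10Rik at least 57.0-fold and Sparc, the osteonectin gene, at least 45.4-fold. Cytl1 and Chad, both expressed by chondrocytes, were at least 33.7-fold and 29.1-fold lower. Clu (44 UMIs in Ctrl and 1 in HLU), Ctgf (39 and 2) and Mmp3 (93 and 5) were detected in HLU, with ratios of 154 (95% counting interval 26.2 to 6201), 68.0 (17.6 to 582) and 64.9.

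The same transcripts were found in cells that should lack them. Dcn was detected in 93.0% and 94.1% of Ctrl neutrophils and in 2.80% and 1.84% of HLU neutrophils, and Prg4 in 78.7% and 88.4% and in 0.35% and 2.48%. Summed over the skeletal list, members gave 1586 and 1974 CPM in Ctrl and 107 and 46.8 in HLU, and neutrophils gave 7350 and 7561 and then 969 and 228. Of the 21 genes on it Dcn gave most UMIs in members (149), while Col3a1 and Lepr were at 0 and Col1a1, which the rule limits, gave 2. In both groups the library with the larger share of skeletal barcodes had the lower sum, and whether the RNA came from the members or from the fluid around them was not tested. With genes of other cell types left out of the sums, 2 genes were called, both lower and both called in the main test too. They are among Mmp3, Ctgf, Cytl1 and Chad, which fell in the main test but are on none of the lists.

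**Figure D4:**
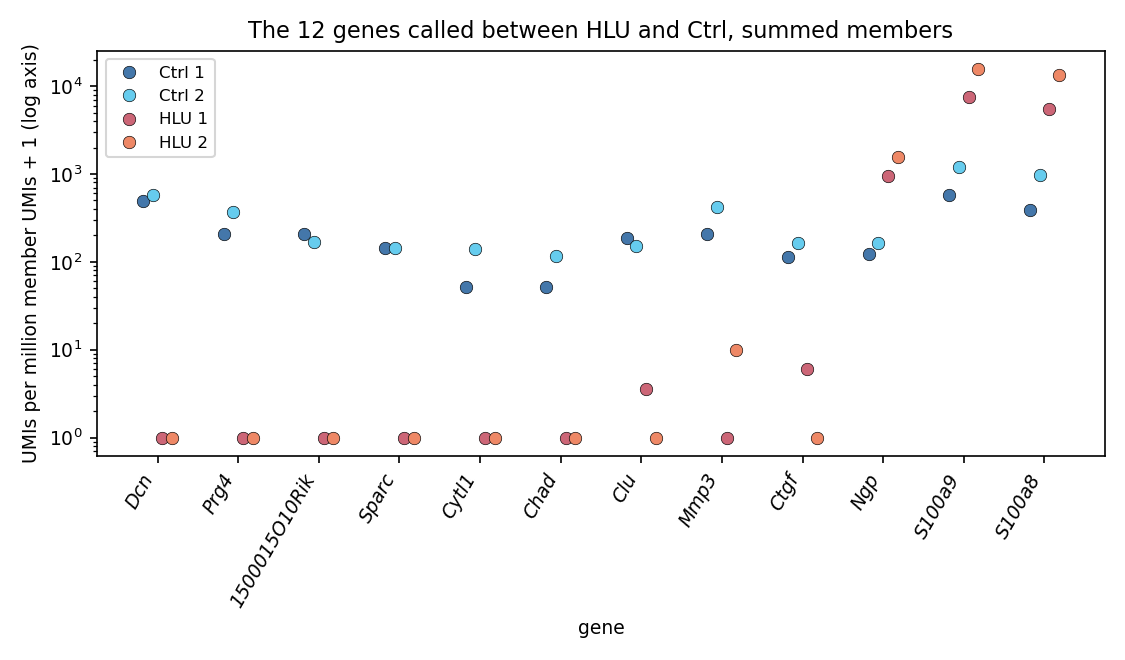
CPM plus 1 in members (log y axis) of the 12 genes called between HLU and Ctrl members (x axis), with 1 point per library. Ngp, S100a8 and S100a9 stand higher in both HLU libraries, and 6 of the 9 genes that fell lie at 0 UMIs (drawn at 1) in both.

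Genes of glycolysis and of the response to low oxygen had lower values in HLU, without a call in the main test. The log2 fold change was below 0 for all 21 tested genes of the list, with a median of -1.23 against 0.02 over all genes. In 19 of the 21 both HLU libraries lay below both Ctrl libraries, as 18.7% of all tested genes did, and 7 had an unadjusted p under 0.05, but 0 passed the adjusted threshold. Gpi1, the second enzyme of glycolysis, gave 2056 and 2555 CPM in Ctrl and 1384 and 427 in HLU (log2 fold change -1.44, SE 0.54, adjusted p = 0.685). Slc2a3, a glucose transporter gene, gave 235 and 518 in Ctrl and 178 and 37.8 in HLU (log2 fold change -1.93, adjusted p = 0.621). Egln3, an oxygen sensor that is itself induced by low oxygen, gave 153 and 259 in Ctrl and 81.6 and 10.8 in HLU (log2 fold change -2.33, SE 0.73, adjusted p = 0.543). With a library left out the change ran from -4.40 to -1.42 for Egln3, -3.49 to -1.16 for Slc2a3 and -2.59 to -0.78 for Gpi1. With all libraries in the fit, Egln3 and Slc2a3 were each called under 1 alternative setting. Hk2, which commits glucose to the pathway, gave 297 and 340 in Ctrl and 186 and 207 in HLU.

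HLU replicate 2 held the lowest sums, in members and in neutrophils. The list summed to 20634 and 24263 CPM in Ctrl members, 15893 in HLU replicate 1 and 5133 in HLU replicate 2. In neutrophils it summed to 22159 and 25156, then 20403 and 6067. Without HLU replicate 2 the median log2 fold change in members was -0.62, and without HLU replicate 1 it was -2.51. The HLU effect differed between members and neutrophils for 0 of the 22 genes that could be compared (edgeR's interaction test).

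**Figure D5:**
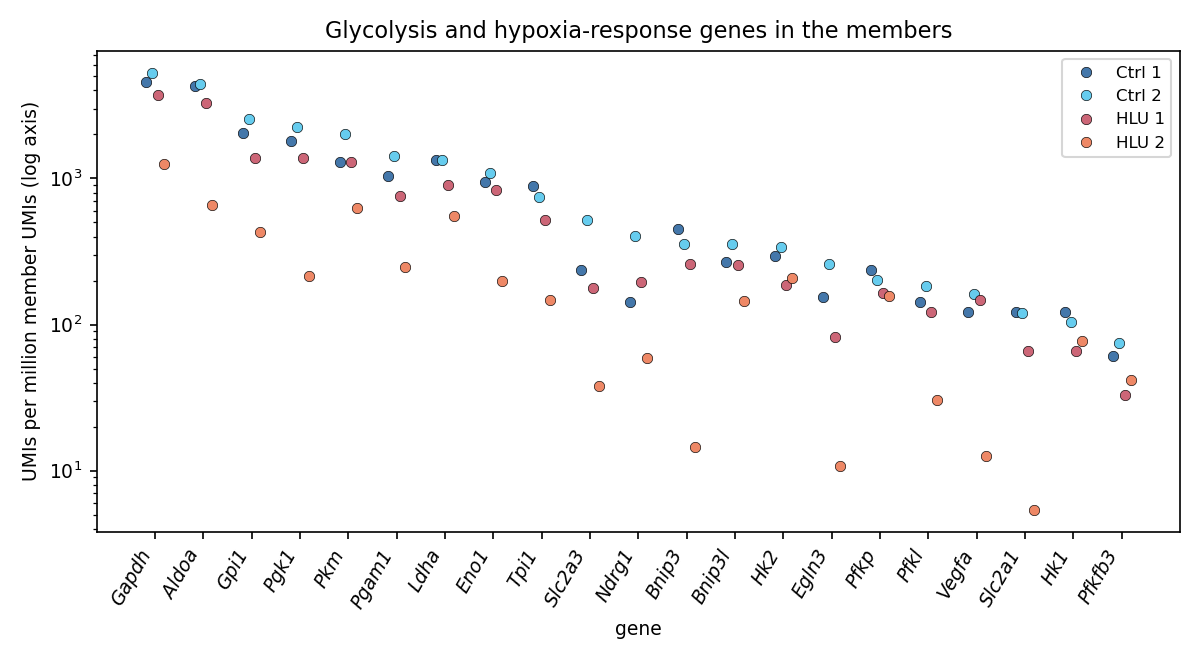
CPM in members (log y axis) of genes of glycolysis and the response to low oxygen (x axis), with 1 point per library. HLU replicate 2 is the lowest point for most genes, and the list sums to 20634 and 24263 CPM in Ctrl and 15893 and 5133 in HLU.

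Immediate-early genes, which cells induce within minutes of a stimulus or of handling, had 3 positive and 15 negative values among 18 tested genes, with a median of -0.45 and 0 calls. Ier3 gave 890 and 1341 CPM in Ctrl and 591 and 362 in HLU (log2 fold change -1.33, adjusted p = 0.562), and Jun gave 368 and 403, then 263 and 41.4. Heat shock genes had 4 positive and 7 negative values (median -0.36). Hspa1a was at 40.9 and 80.6 CPM in Ctrl, at 237 in HLU replicate 1 and at 0 in HLU replicate 2, above and below both Ctrl values. Anti-apoptotic genes (3 positive, 4 negative), pro-apoptotic genes (4 positive, 6 negative) and genes of glutamine metabolism (9 positive, 3 negative, median 0.13) had 0 calls. So did genes of basophil and mast cell progenitors (8 positive, 7 negative, median 0.01), the 3 tested mast cell genes, S phase genes (7 positive, 2 negative, median 0.87), interferon response genes (4 positive, 1 negative) and monocyte genes (4 positive, 1 negative). Of the lists for other cells, 2 T and NK cell genes, 2 erythroid genes, 1 megakaryocyte gene and 0 B cell genes had enough UMIs to be tested, and 0 were called.

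Transcripts of the G2 and M phases of the cell cycle were counted in each member. After each member was thinned to 1000 UMIs, 0 of 11 and 2 of 19 Ctrl members (10.5%) held at least 3 such UMIs, against 4 of 44 (9.09%) and 15 of 64 (23.4%) HLU members. The 95% exact interval for the first of these reaches up to 28.5%. Ctrl libraries averaged 5.26% ± 7.44 and HLU libraries 16.3% ± 10.1 (SD, n = 2 libraries each), a difference of 11.0 percentage points. The groups overlapped, with HLU replicate 1 below Ctrl replicate 2 (two-sided exact permutation test, p = 0.667). Without thinning, 47.1% of Ctrl and 43.5% of HLU members held at least 3 such UMIs, and 17.7% and 31.3% held at least 5, so that the direction depended on the limit. In neutrophils the thinned share was 9.22% ± 0.145 and 13.9% ± 4.22. Of the 21 members past this limit after thinning, 14 were in the first set. Mki67, a marker of cycling cells, was at 0 and 40.3 CPM in Ctrl and at 56.1 and 371 in HLU (log2 fold change 3.01, adjusted p = 0.602). With a library left out the change of Mki67 ran from 2.30 to 9.20 (highest without Ctrl replicate 2). The group that lost a library then shows no spread between mice. With all libraries and no filter on low counts, edgeR called the gene (adjusted p = 9.77e-05). The list had 17 positive and 2 negative values (median 0.57) with 0 calls.

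Of the 4 tested genes of the eosinophil list 3 were positive and 1 was negative (S100a10, which is not particular to eosinophils, -0.40), with 0 called. Epx, Prg2 and Prg3 had higher values in both HLU libraries than in Ctrl and lay in the 15 cells of the third set but for 1 Prg2 UMI. Epx gave 0 and 5.8 CPM in Ctrl and 81.6 and 337 in HLU (log2 fold change 5.60, SE 1.11, adjusted p = 0.128). Prg2 gave 0 and 2037 in Ctrl and 17002 and 8093 in HLU, and Prg3 gave 0 and 178, then 752 and 339. With a library left out the log2 fold change ran from 4.26 to 9.17 for Epx, 2.55 to 15.1 for Prg2 and 1.53 to 10.6 for Prg3, highest without Ctrl replicate 2 for each. The group that lost a library then shows no spread between mice, so no p-value of such a fit is given here. With all libraries and no filter on low counts, edgeR called all 3 genes (adjusted p = 9.01e-09, 1.08e-11 and 0.000225). DESeq2 called Epx (adjusted p = 0.0481).

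The change with HLU was then compared between members and neutrophils of the same libraries, with the library as a block. It differed for 68 of 12001 tested genes (0.567%), more positive in members for 58 and more negative for 10. Leaving out either Ctrl library gave 42 (replicate 1) or 31 (replicate 2) calls, and leaving out either HLU library gave 103 (replicate 1) or 33 (replicate 2). On the lists stood 22 of the 68, among them 10 genes of the neutrophil list. Of these 10, Ngp, Ltf, Camp, Mmp9 and Retnlg were used to choose the neutrophils, so that their differences are a description and not a test. The smallest adjusted p was that of S100a9, which the choice did not use (difference of log2 fold changes 3.47, edgeR's adjusted p = 3.00e-11). The neutrophils were still chosen by other genes of the same cell type, and the fit kept the 10 members of the fourth set. The difference lay near the change in members alone (3.58). S100a9 rose in members and stayed between 118520 and 153199 CPM in neutrophils in all 4 libraries (scaled by TMM factors, edgeR's correction for library composition). No gene of the basophil identity, IgE receptor or granule lists was among the 68 (0 genes of 15, 24 and 18 tested).

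Il1rl1 and Csf1 were the receptor and cytokine genes whose change was more positive in members. On the same scale, Il1rl1 gave 24.4 and 41.4 CPM in Ctrl members and 58.3 and 73.6 in HLU members, while neutrophils gave 21.6 and 21.3 and then 0.504 and 6.48 (difference 3.98, adjusted p = 1.26e-07). The difference thus came mostly from the neutrophils. Csf1 gave 56.9 and 78.3 in Ctrl members and 159 and 207 in HLU members, against 34.4 and 26.1 and then 12.02 and 22.5 in neutrophils (difference 2.20, adjusted p = 0.000289), and without Ctrl replicate 1 the adjusted p was 0.0706. Stat5a was more negative in members, with 130 and 96.7 in Ctrl and 30.2 and 18.0 in HLU against 9.08, 12.8, 10.4 and 11.8 in neutrophils (difference -2.25, adjusted p = 0.0234). That call was lost without Ctrl replicate 1 (adjusted p = 0.396), without HLU replicate 2 (adjusted p = 0.772) and against all other barcodes in place of neutrophils (adjusted p = 0.0505). Il10ra, the IL-10 receptor gene, gave 56.9 and 64.5 in Ctrl members and 28.2 and 6.94 in HLU members, against 9.08, 16.9, 20.1 and 29.5 in neutrophils (difference -2.82, adjusted p = 0.00548). Its call was lost without Ctrl replicate 1 (adjusted p = 0.0706), without Ctrl replicate 2 (adjusted p = 0.0638) and without HLU replicate 2 (adjusted p = 1).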

How the data were processed

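Bone tissue cells of 2 Ctrl and 2 HLU mice were profiled with the 10x Genomics 3′ kit, 1 library per mouse. UMIs were counted by the authors against mm10 (Cell Ranger 6.0.0), and the deposited values are raw counts of 31053 genes per barcode, without normalization. The submitters' processing notes also name Seurat 4.1.0, whose output was not used here. Members were found in these counts by the rule given above, with Python 3.11.15, numpy 2.4.6, scipy 1.17.1 and pandas 2.3.3. The members and the 29 gene lists were chosen with earlier results of these data known. Doublets were scored with Scrublet in scanpy 1.11.5 (rate 0.8% per 1000 cells) and kept, and their removal was an alternative.

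Libraries, not cells, were the replicates. UMIs were summed per library and tested with edgeR 4.0.16 in R 4.3.3 (TMM factors, filterByExpr, quasi-likelihood test, Benjamini-Hochberg over all tested genes, threshold 0.05). No test of the rule genes is given. The HLU effect in members was compared with that in neutrophils by an interaction term with the library as a block. DESeq2 1.42.0 was an alternative. A fit with a library left out has no spread between mice in that library's group, and its p-values and counts are a description. CPM values are UMIs of a gene per 1000000 UMIs of the members of a library. Shares were compared by exact permutation tests, with exact Clopper-Pearson intervals of 95%. Genes named were those of the lists and, from the test of all genes, up to 12 rises and 12 falls with an adjusted p under 0.05 and groups that did not overlap. Leading genes of the sets were ranked by fold among genes in at least 25% of the cells of a set. Of the 494 list genes, 492 were in the files. None of the libraries repeated another, since the members' gene sums of the closest pair differed by a chi-square of 2.97 per degree of freedom. Tried on simulated data, the tests missed most of the changes that had been put in, those of smaller fold above all, so that 0 calls in a list does not show that its genes did not change. Sequences came from the RefSeq table for GRCm38.p6, which held no Prg2 entry.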

Additional observations from a re-analysis of the deposited data

Results flagged for a closer look

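The change with HLU differed between members and neutrophils by a test of the difference itself (edgeR's interaction term) for 68 genes. Of these, 22 are on the gene lists. The difference of log2 fold changes, members minus neutrophils, was 3.47 for S100a9, 3.45 for S100a8, 3.31 for Ngp, 3.81 for Chil3, 2.60 for Retnlg, 2.28 for Camp, 2.26 for Lcn2, 2.90 for Ltf, 2.73 for Wfdc21 and 3.18 for Mmp9, all neutrophil genes. It was 1.98 for Lyz2 and 3.16 for Ly6c2, which monocytes share. With a library left out the difference ran from 2.58 to 12.4 for Ly6c2 and from 2.63 to 12.4 for Mmp9. The 10 HLU members of the fourth set held 86.0% of the S100a8 and S100a9 UMIs of all members. No fit of this difference left those cells out. A fit with a library left out has no spread between mice in that library's group. Ngp, Ltf, Camp, Mmp9 and Retnlg were used to choose the neutrophils, so their values are a description with no test. Of the others, S100a9 and S100a8 were called with each library left out and with all other barcodes in place of neutrophils, and the remaining 5 were not. Without Ctrl replicate 1 the adjusted p was 0.135 for Lcn2, 0.188 for Wfdc21, 0.551 for Lyz2 and 0.375 for Ly6c2. Without Ctrl replicate 2 it was 0.0771 for Chil3, 0.0617 for Lcn2, 0.0962 for Wfdc21 and 0.303 for Ly6c2, and without HLU replicate 2 it was 0.834 for Wfdc21. Against all other barcodes it was 0.0606 for Chil3, 0.381 for Wfdc21, 0.788 for Lyz2 and 0.415 for Ly6c2.

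Among the other list genes, the difference was 3.98 for Il1rl1, 2.20 for Csf1, 1.94 for Gclc (the first enzyme of glutathione synthesis), 3.16 for Hspa1a and 3.05 for Hspa1b (near-identical copies whose UMIs cannot be told apart with certainty). It was -2.82 for the chemokine gene Ccl5, -2.82 for Il10ra and -2.25 for Stat5a. For Il1rl1 it ran from 2.80 to 6.10 with a library left out. Il1rl1 was called with each library left out. Without HLU replicate 1 the difference turned to -4.56 for Hspa1a and -3.53 for Hspa1b, and without Ctrl replicate 1 neither was called (adjusted p = 0.346 and 0.2605). Ccl5 turned to 9.99 without Ctrl replicate 2 and to 0.21 without HLU replicate 2 (adjusted p = 1 for both). Without Ctrl replicate 1 the adjusted p was 0.0706 for Csf1, 0.188 for Gclc, 0.0706 for Il10ra and 0.396 for Stat5a. Without Ctrl replicate 2 it was 0.102 for Gclc and 0.0638 for Il10ra, without HLU replicate 1 it was 0.0614 for Gclc, and without HLU replicate 2 it was 1 for Il10ra and 0.772 for Stat5a. Against all other barcodes it was 0.0505 for Stat5a. For the matrix genes Dcn and Prg4 it was -9.99 and -9.33, fitted values that depend on the prior count because HLU members held 0 UMIs of either gene. The Dcn call was lost without HLU replicate 1 (adjusted p = 0.12), without HLU replicate 2 (0.0552) and against all other barcodes (0.0888), and the Prg4 call without Ctrl replicate 1 (0.0513), without Ctrl replicate 2 (0.384), without HLU replicate 2 (1) and against all other barcodes (0.0687).

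Outside the members, the haemoglobin limit removed 1 barcode of HLU replicate 1 and 6 barcodes of HLU replicate 2 that held 5 or more marker UMIs, against 0 in either Ctrl library. The limit had removed 25 and 135 barcodes in Ctrl and 161 and 528 in HLU.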

How the results depend on the processing

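The counts of calls, the shares and the changes of selected genes and lists were recomputed under other settings, some of them chosen after seeing the data (members without the Prg2 set, without the S100a8 and S100a9 set, or without both and with at least 5 Mcpt8 and Prss34 UMIs, and G2 and M shares unthinned). The difference in member share kept its direction under all of them. It was 0.367 to 0.458 percentage points over other rules and denominators and 0.379 to 0.517 with each library left out. The exact intervals of Ctrl replicate 2 and HLU replicate 1 overlapped under several of these settings, selection after thinning and removal of doublets among them.

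The counts of called genes moved with the settings. In members, 12 genes (3 higher, 9 lower) became 20 (9 higher) with DESeq2, 75 (38 and 37) with no filter on low counts, 0 (0 and 0) with at least 10 counts in every library, 7 (1 higher) with a marker sum of at least 10, 4 (0 and 4) with at least 5 Mcpt8 and Prss34 UMIs, 0 (0 and 0) with 11 members per library, 2 (0 and 2) without genes of other cell types, and 2 (0 and 2) when the limit of at least 5 Mcpt8 and Prss34 UMIs was joined with leaving out the Prg2 and the S100a8 and S100a9 members. At least 10 counts in every library left 1248 genes tested, against 4103 in the main test. The 9 lower genes held 5 or fewer UMIs in HLU members and could not be called there. No filter left 12699 genes tested, and 11 members per library left 1543. The 2 calls without genes of other cell types were among the 12. Leaving out the S100a8 and S100a9 members alone gave 8 and the Prg2 members alone 12. With each library left out the counts ran from 0 to 428 (0 to 191 higher, 0 to 237 lower): 0 without Ctrl replicate 1, 3 without Ctrl replicate 2, 428 without HLU replicate 1 and 46 without HLU replicate 2. Higher calls fell to 0 without doublets and without the S100a8 and S100a9 members. Against neutrophils, 68 genes (58 and 10) became 254 (146 and 108) with all other barcodes as comparator and 31 to 103 (25 to 86 higher, 2 to 17 lower) with a library left out.

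The replicate block gave 35 calls (17 higher, 18 lower), Epx (adjusted p = 0.00117) and Mki67 (0.0166) among them. The labels do not say whether the replicate numbers pair the samples, and they were not treated as pairs. The correlation of deviations was 0.0797 over 2712 genes, which from 2 pairs cannot settle it.

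Some values reversed. Ngp went to -0.093 with 11 members per library and to -0.26 in the members of the narrowest rule. Against neutrophils, Ccl5 ran from -5.41 to 9.99 (0.21 without HLU replicate 2), Hspa1a from -4.56 to 5.12 and Hspa1b from -3.53 to 4.26 with a library left out, both lowest without HLU replicate 1. The median of the G2 and M list went to -0.71 without HLU replicate 2 and -0.088 with 11 members per library (up to 5.85 without Ctrl replicate 2), and that of the migration list to -0.025 with at least 10 counts in every library. The share of dividing members differed by -3.59 points unthinned at a limit of 3 UMIs, by 13.6 unthinned at a limit of 5 and by 3.83 to 18.2 with a library left out, and that of members with few Mcpt8 and Prss34 UMIs by -5.55 to 12.2 with a library left out. The causes were not tested. Of the alternative values of single genes and list medians, 605 kept their direction and side, 100 lost a call, 29 gained one and 9 reversed. With 11 and 19 Ctrl members, depth limits every comparison of genes.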
